A study of Mus musculus with 2 samples.

Results

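The SIBLING genes (small integrin-binding ligand, N-linked glycoproteins) encode the acidic phosphoproteins of dentin and bone matrix. The members described here were taken by gene symbol: Dspp, Dmp1, Ibsp, Mepe and Spp1, which are 5 of the 31253 genes counted in both libraries. The cells came from the mandibular first molar germs of newborn C57BL/6 mice and were captured on the BD Rhapsody microwell system, which counts unique molecular identifiers (UMIs) per gene and cell. The study addressed how epithelial loss of Edar, the ectodysplasin receptor, alters the tooth, as in hypohidrotic ectodermal dysplasia. The control library (Edarfl/fl) carried loxP sites in Edar and no Cre. The deletion library (K14cre;Edarfl/fl) carried the same floxed allele and a Cre driven by the keratin 14 promoter, so recombination is directed to epithelium, and the mesenchyme that forms dentin was not targeted. How many germs were pooled in a library is not given in the sources used here.

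SIBLING proteins are secreted by cells that make mineralised tissue, bind calcium through phosphorylated serines and acidic residues, and bind integrins through an RGD sequence. Dspp is cleaved into dentin sialoprotein and dentin phosphoprotein, the main non-collagenous proteins of dentin, and is also expressed briefly by young ameloblasts, the cells that form enamel. Dmp1 (dentin matrix protein) acts in odontoblasts and osteocytes in mineralisation and phosphate balance. Ibsp encodes bone sialoprotein, a nucleator of mineral in bone and cementum, Mepe a phosphoglycoprotein of osteocytes, and Spp1 osteopontin, an inhibitor of crystal growth that macrophages and other cells also secrete.

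There was 1 library per group, so no difference below has a replicate check and no p-value was computed. Sequencing gave 73375441 UMIs over 13990 barcodes in the control and 62158879 over 16029 in the deletion library. After filtering, 13255 and 15244 cells remained, at median depths of 4444 and 3329 UMIs, and 4 barcodes occurred in both libraries. Edar in epithelium-like cells stood at 34.6 CPM (counts scaled to a common UMI total per class) in the control against 21.2 CPM in the deletion library, with a 95% interval of the count ratio of 0.501 to 0.744. Edar was thus lower but present in the library labelled as the deletion, and Krt14, whose promoter drives the Cre, had 666 and 645 CPM.

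All 5 members lie on the plus strand of chromosome 5 within 270339 bases (GENCODE M21 annotation of mm10). Dspp (ENSMUSG00000053268) spans positions 104170712 to 104180127 with 5 exonic parts. Dmp1 (ENSMUSG00000029307) follows at 104202613 to 104214102 with 6 exonic parts. Ibsp (ENSMUSG00000029306) spans 104299171 to 104311469 with 7, Mepe (ENSMUSG00000053863) 104325329 to 104338611 with 3, and Spp1 (ENSMUSG00000029304) 104435118 to 104441050 with 8. The gaps between neighbours are 22485, 85068, 13859 and 96506 bases in that order. The 4431 exonic bases of Dspp against 1648 of Spp1 are 1 reason why levels are compared below within a gene and not between genes.

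**Figure D1:**
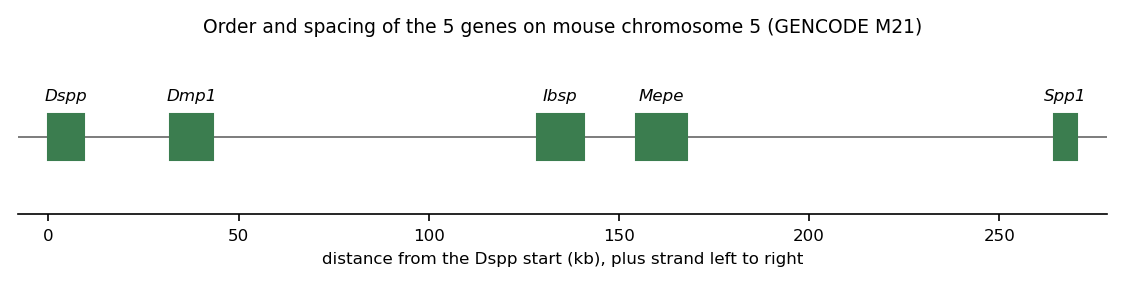
Positions of the 5 members along chromosome 5, with the distance from the Dspp start in kb on the x axis and each box spanning a gene from start to end. Dspp and Dmp1 lie close together, Ibsp and Mepe form a second close pair, and Spp1 stands 96506 bases after Mepe.

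RefSeq windows of the 250 bases before the start (GRCm38.p6, the assembly also called mm10) were found for 4 of the 5 members, Dmp1, Ibsp, Mepe and Spp1. Each of the 4 held the letters CCAAT on the minus strand close to the start, which read ATTGG on the plus strand. The letters CCAAT, on either strand, occurred in 33.8% of all 32851 such windows, so this shared match is a description of the members and not a regulatory finding. The stretches of 30 bases around the match are shown, 5′ to 3′ on the plus strand with the match in capitals, because CCAAT was the only motif searched that all 4 windows held.
Dmp1, chr5:104202550-104202579: cctgaggctcATTGGctctgaggagctgca
Ibsp, chr5:104299223-104299252: cacagctgtgATTGGctgttgagaggcgga
Mepe, chr5:104325298-104325327: aaccatgctgATTGGacatcgggggctctc
Spp1, chr5:104435055-104435084: ccacctcctgATTGGtggagactgtctgga

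The match began 57, 54, 21 and 46 bases before the RefSeq start in this order. The RefSeq start of Ibsp lies 116 bases inside the first exon of the GENCODE model, so its stretch is upstream in the first annotation and exonic in the second. The windows of Dmp1 and Spp1 are given in full, up to the first annotated base, because both genes were detected in odontoblast-like sub-cluster 0, described below, while Spp1 alone was high in macrophage-like cells. Capitals mark CCAAT, the RUNX core TGTGGT and TATAAA, each on either strand.
Dmp1, chr5:104202367-104202612, 246 bases: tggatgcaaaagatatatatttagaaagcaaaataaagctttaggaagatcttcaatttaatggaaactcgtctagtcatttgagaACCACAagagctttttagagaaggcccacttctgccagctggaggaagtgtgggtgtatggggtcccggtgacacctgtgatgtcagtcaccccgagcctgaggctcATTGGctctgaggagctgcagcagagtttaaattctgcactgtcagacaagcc
Spp1, chr5:104434861-104435110, 250 bases: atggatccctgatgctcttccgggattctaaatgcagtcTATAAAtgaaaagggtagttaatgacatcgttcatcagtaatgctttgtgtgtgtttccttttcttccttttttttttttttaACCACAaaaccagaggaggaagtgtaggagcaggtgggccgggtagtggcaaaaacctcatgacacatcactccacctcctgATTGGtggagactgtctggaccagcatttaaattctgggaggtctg

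TGTGGT, the core letters bound by RUNX factors such as the osteoblast regulator Runx2, was found in 3 of the 4 windows (Dmp1, Mepe and Spp1) and in 14% of all windows. TATAAA, on either strand, was found in 3 (Ibsp, Mepe and Spp1) and in 12.4% of all windows. In Ibsp it lay on the minus strand 28 bases before the RefSeq start, a position inside the first exon of the GENCODE model. In Mepe (minus strand) and Spp1 (plus strand) it lay 173 and 211 bases before the start. The homeodomain core TAATTA was found in Mepe alone and in 4.8% of all windows. TGANTCA, the AP-1 letters, was found in none of the 4 and in 6.7% of all windows.

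Cells were clustered with the 5 members left out of the variable genes, and clusters were named from marker lists that hold no member, so the classes below were not drawn from the values described. Mesenchyme-like cells made up 63.96% of control and 72.15% of deletion cells. Within them, odontoblast-like cells were 2876 of 8478 control cells (33.9%, exact interval 32.9 to 34.9) and 1919 of 10999 deletion cells (17.4%, 16.7 to 18.2). This class held 2 sub-clusters. Sub-cluster 0, led apart from the members by Phex, Col11a2 and Bglap, had 1461 control cells (17.2% of mesenchyme) and 645 deletion cells (5.86%). Sub-cluster 3, led by Sgms2, Gfra1 and Smpd3, had 1415 (16.7%) and 1274 (11.6%). Different sub-clusters therefore held most of the class in each library, sub-cluster 0 in the control and sub-cluster 3 in the deletion library, and every value over odontoblast-like cells carries that difference. A share of dissociated cells can also be set by the dissociation, which was not tested.

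No cluster could be named osteoblast-like. Mesenchyme sub-cluster 11, with 209 control and 379 deletion cells, led by Mmp13, Mmp9, Spp1, Pdzrn4 and Sfrp4, is described in its place. Its 9 osteoblast markers summed to 2244 and 2044 CPM, and none was at 0, with Runx2 at 718 and 635 CPM and Ifitm5 at 44.95 and 35.2 CPM. The same sum was higher in unnamed sub-cluster 4 (2759 and 2178 CPM). It was also higher in odontoblast-like sub-cluster 0 (3117 and 3065 CPM) and sub-cluster 3 (2823 and 2645 CPM). The 7 dental follicle markers of sub-cluster 11 summed to 2400 and 2235 CPM, so it carried both lists at near equal level and is called here the Mmp13-led sub-cluster 11.

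Dspp was concentrated in odontoblast-like sub-cluster 0 and in ameloblast-like cells. Sub-cluster 0 held 73843 of 79622 control UMIs of the gene (92.7%) and 18327 of 21403 deletion UMIs (85.6%), at 5717 and 4222 CPM. A Dspp UMI was found in 92.5% and 89.9% of these cells. Sub-cluster 3 of the same class stood at 91.7 and 97.1 CPM, with a UMI in 18.6% and 14.7% of cells, which sets the pair of odontoblast-like sub-clusters far apart in both libraries. Ameloblast-like cells, 293 and 172 in number, had 2125 CPM (exact Poisson interval 2047 to 2204) in the control against 2615 CPM (2490 to 2744) in the deletion library, with a UMI in 77.1% and 79.1% of cells.

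Outside these classes Dspp was low. In endothelium-like cells, which should lack the gene, it stood at 48.7 CPM in the control (236 UMIs, 6.11% of cells, median depth 3024 UMIs) and 8.05 CPM in the deletion library (29 UMIs, 2.55%, median depth 2961). Dental papilla-like cells had 45.5 and 9.22 CPM and dental follicle-like cells 45.5 and 9.68 CPM, which is the endothelium-like level in each library, and these values are read as background. Mural-like cells (77.9 and 16.4 CPM) and neutrophil-like cells (97.2 and 15.8 CPM), which should lack the gene too, had a like drop from a higher control level. Macrophage-like cells had 8.92 and 6.36 CPM and stratum intermedium-like cells 13.6 and 14.97 CPM. Inner enamel epithelium-like cells, from which ameloblasts form, had 82.8 and 40.4 CPM, levels that neutrophil-like cells in the control (27 UMIs) and fibroblast-like cells in the deletion library (40.8 CPM) also reached. Within this class the level was uneven. Epithelium sub-cluster 6 had 196.5 and 64.05 CPM, with a UMI in 17.2% and 10.95% of cells. Epithelium sub-cluster 9 had 160.8 and 123.8 CPM, with a UMI in 18.9% and 17.6% of cells. Its sub-clusters 0, 1 and 2 had 20.14 CPM or less in both libraries.

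Dmp1 shared the odontoblast-like site of Dspp but not the ameloblast-like one. Sub-cluster 0 held 92.97% of its control UMIs and 86.1% of its deletion UMIs, at 2882 and 2541 CPM, and a UMI was found in 97.3% and 94.3% of cells. Sub-cluster 3 had 204 and 174 CPM, with a UMI in 22.1% and 19.6% of cells. Ameloblast-like cells had 14 Dmp1 UMIs in the control (10.4 CPM) and 4 in the deletion library (6.35 CPM), against 12.0 and 5.0 CPM in endothelium-like cells. Of the UMIs of both genes together, Dmp1 made up 33.5% and 37.6% in sub-cluster 0, but 0.486% (interval 0.266 to 0.814) and 0.242% (0.0660 to 0.619) in ameloblast-like cells. The control share in ameloblast-like cells lay far below the 19.7% (15.3 to 24.7) in control endothelium-like cells. Sub-cluster 11 had 71.9 and 108 CPM of Dmp1, with Dspp there at 24.97 and 29.4 CPM.

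Ibsp had another distribution. Dental follicle-like cells, from which cementum, ligament and alveolar bone cells arise, held 77.5% of its control UMIs and 71.7% of its deletion UMIs, at 1935 and 1374 CPM. Within them it was high in sub-cluster 8, led by Moxd1 and Igfbp5 (2244 and 2153 CPM), and in the cycling sub-cluster 7 (2436 and 1677 CPM). It was lower in sub-cluster 9, led by Pappa2 and Postn (1108 and 519 CPM). The Mmp13-led sub-cluster 11 had 2359 CPM (2265 to 2456) in the control against 2896 CPM (2807 to 2987) in the deletion library. Odontoblast-like cells had 39.4 and 39.2 CPM, and sub-cluster 0 had 52.1 and 66.8 CPM, where Dspp and Dmp1 were at their highest mesenchymal level. Endothelium-like cells had 5.36 and 11.4 CPM, and 3.57 and 1.21 CPM were found in macrophage-like cells. The 7 dental follicle markers summed to 2371 and 2286 CPM in sub-cluster 8 and to 1915 and 1681 CPM in sub-cluster 7. These sums were near those of sub-cluster 11 and of odontoblast-like sub-cluster 3 (2216 and 2026 CPM, of which Lum gave 2107 and 1906). Sub-cluster 9 (8622 and 7104 CPM) and fibroblast-like cells (8172 and 5214 CPM) had higher sums.

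Ibsp was also found in epithelium, among other classes in stratum intermedium-like cells, the epithelial layer next to ameloblasts. These had 162 CPM (136 to 193) in the control against 233 CPM (196 to 275) in the deletion library, with a UMI in 29.6% and 35.6% of cells. After each cell was thinned to 2000 UMIs these shares were 20.1% and 22.9%, against 0.960% and 1.22% in endothelium-like cells. Ameloblast-like cells had 15.6 and 20.6 CPM and inner enamel epithelium-like cells 5.24 and 8.95 CPM. The other 3 detected members were at 14.97 CPM or less in stratum intermedium-like cells. Unnamed epithelium sub-cluster 8 had 125.7 CPM of Ibsp in the control against 209.9 CPM in the deletion library. Unnamed epithelium sub-cluster 7, whose leading genes include the mesenchymal Col3a1 and Lum, had 328 and 326 CPM.

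Spp1 was highest in the Mmp13-led sub-cluster 11 and in macrophage-like cells. Sub-cluster 11 had 3543 CPM (3427 to 3661) in the control against 4108 CPM (4003 to 4216) in the deletion library, and held 24.3% and 53.2% of the gene's UMIs. Macrophage-like cells, 566 and 534 in number, had 1154 CPM (1124 to 1184) and 875 CPM (843 to 907), which were 39.8% and 26.8% of all Spp1 UMIs. Odontoblast-like sub-cluster 0 had 297 and 248 CPM, with a UMI in 40.0% and 38.0% of cells, and sub-cluster 3 had 40.6 and 32.3 CPM. The unnamed mesenchymal sub-cluster 4, led by Vdr and Slc20a2, had 132 and 67.1 CPM. Osteoclast-like cells, the bone-resorbing relatives of macrophages, had 29.9 CPM from 12 UMIs and 60.5 CPM from 48 UMIs. Endothelium-like cells had 6.40 and 5.55 CPM, and dental papilla-like cells 2.57 and 3.80 CPM, at that background.

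Mepe was near the limit of detection. Over all barcodes it had 5 UMIs in the control library, each in a different barcode, and 1 UMI in the deletion library. Odontoblast-like cells had 2 control UMIs (0.0909 CPM, 0.0110 to 0.328) and 0 deletion UMIs among 1919 cells, where a count of 0 allows a share of up to 0.156% of cells with a UMI. No class of cells can be named as its source at this depth, and it enters no comparison below.

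**Figure D2:**
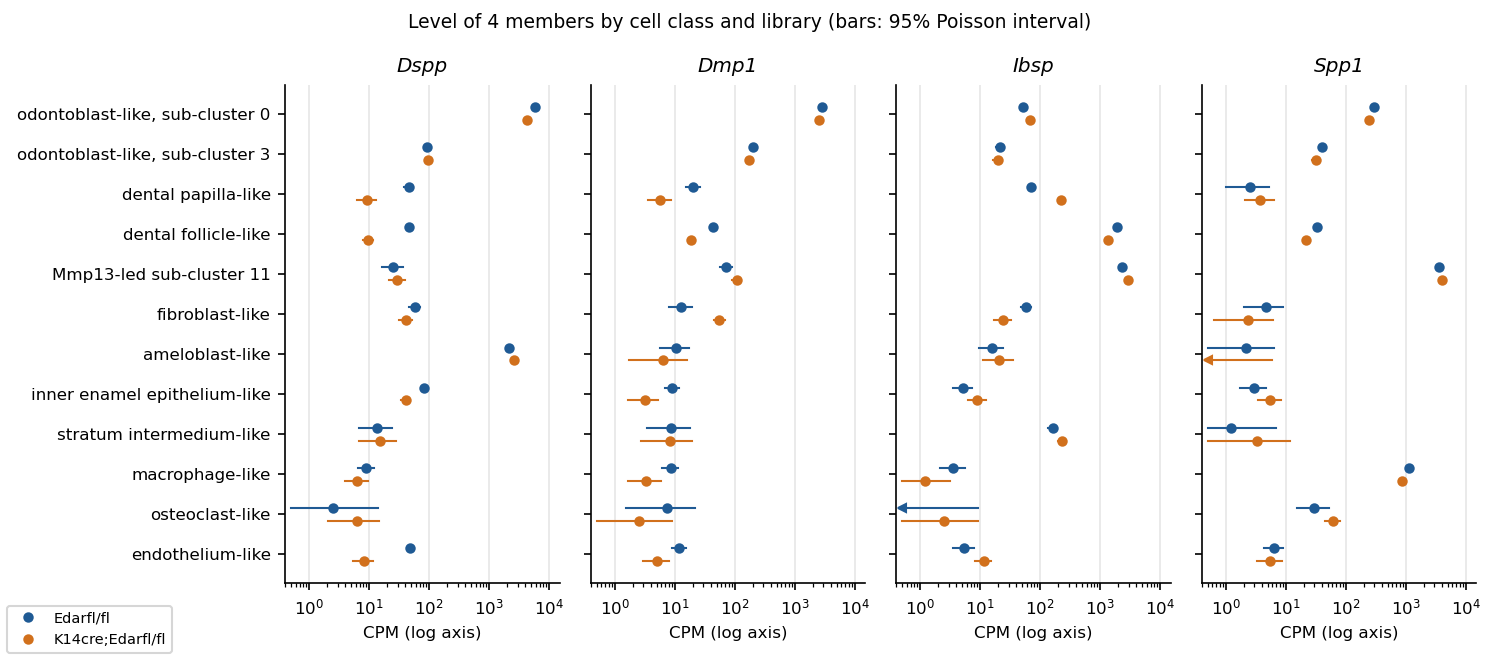
Level of Dspp, Dmp1, Ibsp and Spp1 in CPM (log axis) by cell class, with 1 dot per library and bars for the exact 95% Poisson interval, and an arrow at the left edge where no UMI was counted. Dspp is high in odontoblast-like sub-cluster 0 and in ameloblast-like cells, Dmp1 in sub-cluster 0 only, Ibsp in dental follicle-like cells and sub-cluster 11, and Spp1 in sub-cluster 11 and macrophage-like cells.

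The order of the classes was as follows. For Dspp in the control sub-cluster 0 came before ameloblast-like cells with no overlap, and the named classes outside odontoblast-like cells lay below both, several of them with overlapping intervals. For Ibsp the control values of sub-cluster 11 (2265 to 2456) and sub-cluster 8 (2201 to 2288) overlapped, while in the deletion library sub-cluster 11 (2807 to 2987) lay above sub-cluster 8 (2114 to 2193). For Spp1 sub-cluster 11, macrophage-like cells and odontoblast-like sub-cluster 0 came in this order in both libraries with no overlap. These intervals cover counting error only.

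Co-detection was read after each cell was thinned to 2000 UMIs, and the 1066 control and 2037 deletion cells below that depth were dropped. In odontoblast-like cells Dspp and Dmp1 were found together in 1196 of 2852 control cells (41.9%, exact interval 40.1 to 43.8), against 25.2% from the product of the single shares. In the deletion library they were found together in 514 of 1806 cells (28.5%, 26.4 to 30.6), against a product of 13.3%. Without thinning the shares of cells with both were 50.8% and 35.6%. A Dmp1 UMI was found in 88.7% of control odontoblast-like cells with a Dspp UMI and in 21.4% of those without, and in 83.3% and 15.8% in the deletion library.

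Most of this joint detection followed the sub-clusters. Within sub-cluster 0, 78.0% of control cells held both genes against a product of 76.6%, and 74.0% of deletion cells against 72.4%. Within sub-cluster 3 both were found in 4.70% and 4.72% of cells against products of 1.33% and 1.21%. In sub-cluster 3 Dmp1 made up 69.0% (67.2 to 70.7) and 64.2% (61.8 to 66.5) of the UMIs of both genes, above its 33.5% and 37.6% in sub-cluster 0. Dspp with Spp1 was found in 21.9% and 21.3% of sub-cluster 0 cells against products of 19.9% and 18.8%.

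Ibsp and Spp1 were found together in sub-cluster 11, in 53 of 199 control cells (26.6%, 20.6 to 33.4) and 89 of 309 deletion cells (28.8%, 23.8 to 34.2). The products of the single shares were 14.5% and 15.3%. There, Spp1 was found in 58.2% of control cells with Ibsp and 9.26% of those without, and in 65.9% and 10.9% in the deletion library. In dental follicle-like cells Ibsp was found in 43.4% and 35.3% of thinned cells, but Ibsp and Spp1 together in 0.51% and 0.40%. Dspp and Dmp1 were found together in 2.23% and 2.04% of thinned ameloblast-like cells, of which 68.0% and 74.1% held Dspp. All of the members' pairs are counts of the same cells, so the pairs are not independent of each other.

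**Figure D3:**
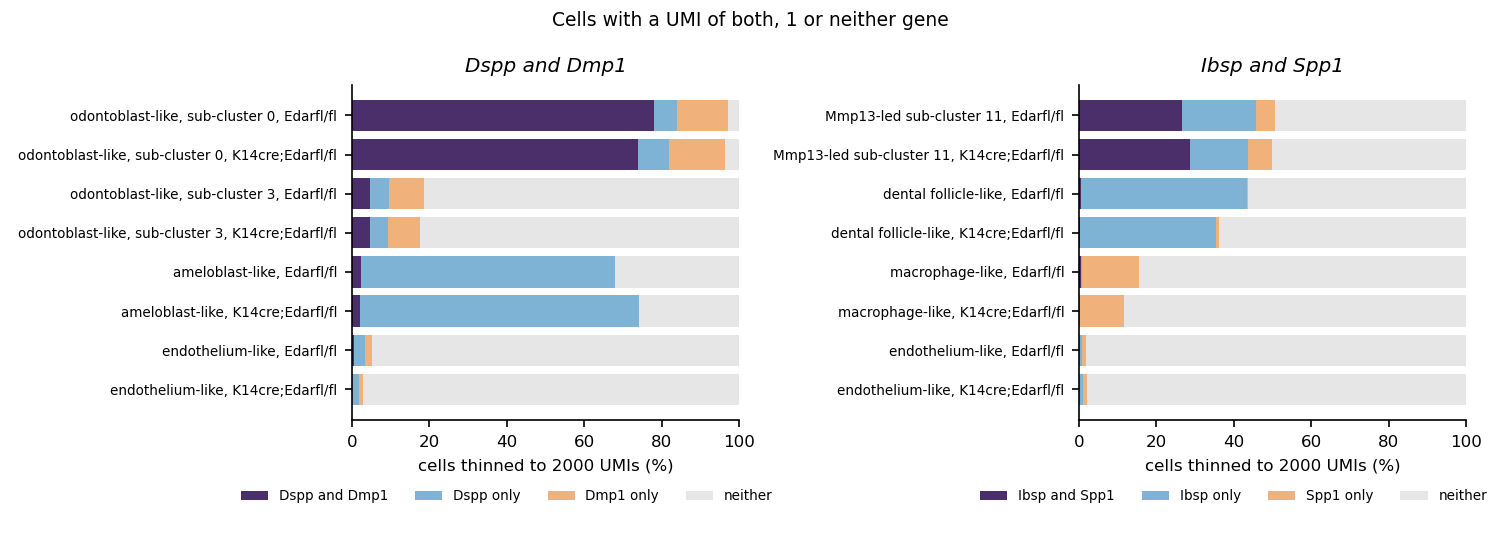
Share of cells, thinned to 2000 UMIs, that held a UMI of both genes, of 1 or of neither (x axis, %), for Dspp with Dmp1 on the left and Ibsp with Spp1 on the right, by class and library. Cells with both Dspp and Dmp1 fill 78.0% and 74.0% of sub-cluster 0, while ameloblast-like cells hold Dspp with almost no Dmp1, and among the classes drawn sub-cluster 11 holds the most cells with both Ibsp and Spp1.

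The members also differed in how their UMIs were spread over cells. In thinned sub-cluster 0 cells Dspp ran from 0 to 82 UMIs with a median of 6 in the control, and from 0 to 55 with a median of 5 in the deletion library. Dmp1 there had a median of 4 in both libraries and a 75th percentile of 8 and 7. The top 10% of cells held 36.6% and 38.1% of Dspp UMIs and 30.7% and 31.4% of Dmp1 UMIs, so both were spread over most of the sub-cluster. In ameloblast-like cells Dspp had a median of 2 and 4 UMIs and a highest value of 31 and 24.

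Spp1 was carried by few cells. In macrophage-like cells its median was 0 in both libraries, its highest value 72 and 92 UMIs, and the top 10% of cells held 95.7% and 99.1% of its UMIs. A Spp1 UMI was found in 15.1% and 11.4% of thinned macrophage-like cells. In sub-cluster 11 the top 10% held 87.9% and 76.8% of Spp1 UMIs and 63.5% and 67.9% of Ibsp UMIs, with a highest Spp1 value of 126 and 134. Ibsp in sub-cluster 9 had a highest value of 98 and 132 UMIs with a 75th percentile of 0, and the top 10% of cells held 99.5% of its control UMIs and all of its deletion UMIs. In sub-cluster 8 Ibsp was spread more evenly, with a median of 1, a 75th percentile of 6 and 7, and 49.0% and 48.2% of UMIs in the top 10%.

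**Figure D4:**
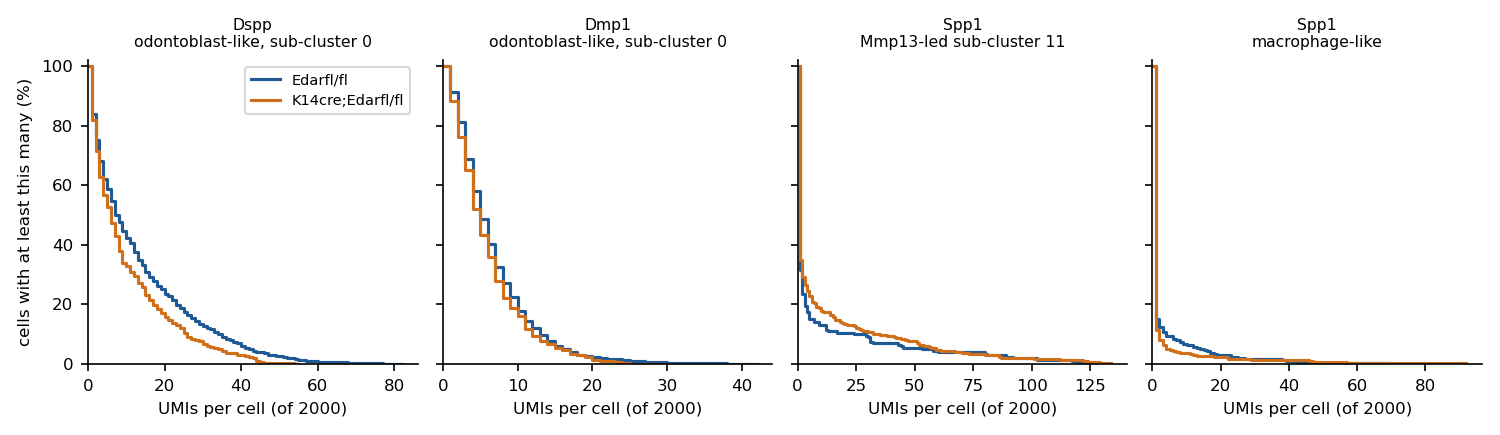
Share of thinned cells (y axis, %) with at least the number of UMIs on the x axis, by library, for Dspp and Dmp1 in odontoblast-like sub-cluster 0 and for Spp1 in sub-cluster 11 and macrophage-like cells. Dspp falls off slowly, with the deletion curve under the control curve, the Dmp1 curves lie close together, and both Spp1 panels drop at once and end in a long tail of few cells.

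For the comparison of the libraries, UMIs were summed per class, and each log2 ratio sets (CPM + 5) of the deletion library over that of the control, a scale on which differences of low genes come out too small. The rule for calling a gene higher or lower asked for 50 CPM or more in 1 library, a ratio of at least 2-fold, and a count ratio whose 95% interval excluded 1. In mesenchyme-like cells 3465 genes reached the level, and in the deletion library 0.26% of them were higher and 0.231% lower. Of the 4 members that reached it, 2 were among the 8 lower genes, Dspp and Dmp1, and none was among the 9 higher.

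Over mesenchyme-like cells Dspp had 1577 CPM in the control against 448 CPM in the deletion library, a log2 ratio of -1.80 (interval of the count ratio 0.280 to 0.289). Dmp1 had 828 and 293 CPM, a log2 ratio of -1.48 (0.347 to 0.361). Ibsp had 395 and 506 CPM, a log2 ratio of 0.35 (1.25 to 1.30), and Spp1 had 179 and 177 CPM, a log2 ratio of -0.02 (0.958 to 1.02). The members thus did not differ together: both odontoblast-like members were lower, and Ibsp and Spp1 did not pass the rule. In a sum over a class, fewer cells of a type and less RNA per cell cannot be told apart.

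The makeup of the mesenchyme moved with these values. Sub-cluster 0, which held most of the Dspp and Dmp1 UMIs, gave 26.9% of mesenchyme-like UMIs in the control against 10.0% in the deletion library. When the 11 sub-clusters with enough cells in both libraries were given equal weight, Dspp had 556 and 405 CPM (log2 ratio -0.45) and Dmp1 303 and 268 CPM (-0.18), and neither passed the rule. Ibsp changed sign under this weighting to -0.14 and Spp1 to 0.13. Median-of-ratios scaling, which shifted the median gene of mesenchyme-like cells by -0.11, gave -1.92 and -1.60 for Dspp and Dmp1 and turned the split of 9 higher and 8 lower genes into 6 higher and 19 lower.

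Within odontoblast-like cells both members had a smaller difference in the same direction. Dspp had 3394 and 1807 CPM (log2 ratio -0.91), Dmp1 1776 and 1156 CPM (-0.62) and Spp1 191 and 122 CPM (-0.63), and Ibsp did not differ beyond counting error (-0.01, count ratio 0.882 to 1.12). Of 2861 genes 0.035% were higher and 0.035% lower, 1 gene each (Xist and Lratd1), and none of the 3 members that reached the level was among them. Xist was also among the higher genes in sub-clusters 0 and 11 and in ameloblast-like and macrophage-like cells. It was not among those of mesenchyme-like, dental papilla-like or dental follicle-like cells. Whether the sex of the pooled germs differed between the libraries was not tested. Dspp did pass the 2-fold rule here under 3 other settings, with a log2 ratio of -1.26 with a stricter cell filter, -1.25 with doublets kept and -1.05 with the members among the variable genes. The share of thinned cells with Dspp was 47.3% and 34.2% and that with Dmp1 53.2% and 38.9%.

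The difference was smaller again within each sub-cluster. In sub-cluster 0 Dspp had a log2 ratio of -0.44 (count ratio 0.727 to 0.751), Dmp1 -0.18 (0.863 to 0.901), Spp1 -0.26 (0.779 to 0.893) and Ibsp 0.33 (1.11 to 1.47). Of 2626 genes there, 0.0381% were higher (Xist) and 0.0% lower, and none of the 4 members passed. The 10 odontoblast markers, none of them a member, summed to 3935 CPM in the control against 3934 CPM in the deletion library in these cells. The markers named the clusters and, unlike the members, were not left out of the variable genes. No marker sum given here is therefore independent of how the cells were grouped. In sub-cluster 3 Dspp had a log2 ratio of 0.08 (0.952 to 1.18) and Dmp1 -0.22 (0.792 to 0.922).

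Ameloblast-like cells, which come from the targeted epithelium, did not share the lower Dspp. Their log2 ratio was 0.30 (count ratio 1.16 to 1.31), and of 3617 genes 0.359% were higher and 0.194% lower, with Dspp in neither group. These cells were 12.9% of control and 9.12% of deletion epithelium-like cells. The 7 ameloblast markers summed to 45430 CPM in the control against 63250 CPM in the deletion library, so their level moved the same way as Dspp, and its part in the Dspp value was not tested. The Dspp ratio in these cells was 0.12 with the stricter cell filter and 0.10 with finer sub-clusters. Over all epithelium-like cells Dspp was lower in the deletion library, at 338 CPM in the control against 281 CPM (count ratio 0.786 to 0.879). It was also lower in inner enamel epithelium-like cells, at 82.8 and 40.4 CPM.

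Among the 11 classes and sub-clusters compared, Ibsp in dental papilla-like cells was the member value that passed the rule upwards. It had 195 UMIs and 71.5 CPM (61.8 to 82.3) in the control and 837 UMIs and 227 CPM (212 to 243) in the deletion library, a log2 ratio of 1.60 (count ratio 2.71 to 3.73). The share of thinned cells with an Ibsp UMI was 7.31% (5.46 to 9.55) and 14.2% (12.2 to 16.5), and the highest cell had 7 and 19 UMIs. Of 3765 genes there, 0.319% were higher and 0.611% lower, 12 and 23 genes. The 7 dental follicle markers in these cells summed to 982 and 1184 CPM and the 9 osteoblast markers to 947 and 1004 CPM, none at 0 in either library, while the 8 dental papilla markers summed to 2571 and 2398 CPM. The part of these markers in the Ibsp value was not tested. The endothelium-like level of Ibsp was 5.36 and 11.4 CPM, well below it in both libraries. Outside the classes compared, other values were more than 2-fold higher in the deletion library on this scale, each on fewer UMIs. Dmp1 in fibroblast-like cells had 22 and 94 UMIs (12.8 and 55.6 CPM), and Ibsp in mesenchyme sub-cluster 5, led by cell cycle genes, had 142 and 296 UMIs (21.95 and 50.5 CPM). Dspp in unnamed epithelium sub-cluster 8 had 15 UMIs in 13 control cells and 44 UMIs in 4 deletion cells. Dmp1 there had 12 UMIs in 11 control cells and 26 UMIs in 5 deletion cells, so fewer cells held more UMIs. Dspp in monocyte or dendritic cell-like cells had 5 UMIs in 5 control cells and 23 UMIs in 3 deletion cells. In glia-like cells Ibsp had 0 and 46 UMIs (7 deletion cells) and Spp1 0 and 23 UMIs (3 deletion cells). Other values outside the classes compared were more than 2-fold lower in the deletion library. Among them were Ibsp in fibroblast-like cells (100 and 40 UMIs, in 10 and 20 cells) and Dspp in epithelium sub-cluster 6 (297 and 58 UMIs, in 47 and 23 cells).

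In dental follicle-like cells Ibsp had the opposite direction, with a log2 ratio of -0.49 (count ratio 0.695 to 0.726). Of 3452 genes 0.29% were higher and 0.0% lower, and Ibsp did not pass. The mix of sub-clusters moved with this value: sub-cluster 9, with less Ibsp, had 518 of 1819 control and 1459 of 3336 deletion cells, while sub-cluster 8 had nearly equal levels of 2244 CPM (2201 to 2288) and 2153 CPM (2114 to 2193). Ibsp was also lower within sub-cluster 9, at 1108 CPM against 519 CPM, and within sub-cluster 7, at 2436 CPM against 1677 CPM. The sub-cluster 9 values, outside the classes compared, differed more than 2-fold on the (CPM + 5) scale. The share of thinned sub-cluster 9 cells with Ibsp was 10.9% (8.35 to 13.9) and 9.98% (8.42 to 11.7). The level of that sub-cluster thus rests on few cells with many UMIs.

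In the Mmp13-led sub-cluster 11 the 3 members that reached the level were higher in the deletion library but did not pass the 2-fold rule. Their log2 ratios were 0.55 for Dmp1 (count ratio 1.12 to 2.01, from 72 and 150 UMIs), 0.30 for Ibsp (1.17 to 1.29) and 0.21 for Spp1 (1.11 to 1.21). The share of thinned cells with a Dmp1 UMI was 5.53% (11 cells) in the control and 5.18% (16 cells) in the deletion library. The Dmp1 level thus rests on few cells and its share was not higher. For Ibsp the thinned shares were 45.7% and 43.7%, and for Spp1 31.7% and 34.95%. Of 3359 genes 0.179% were higher and 0.0298% lower. The osteoblast and follicle marker sums of this sub-cluster were slightly lower in the deletion library, as given above.

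Spp1 in macrophage-like cells had a log2 ratio of -0.40 (count ratio 0.725 to 0.793) and did not pass. Of 3428 genes 0.0583% were higher and 0.117% lower; the 4 lower genes were Igfbp5, Ppbp, Gpnmb and Hmox1. The 7 macrophage markers summed to 9786 and 9259 CPM. In the stratum intermedium-like cells Ibsp had a log2 ratio of 0.51 (1.12 to 1.83), and in osteoclast-like cells, 41 and 104 in number, Spp1 had 0.91 (1.06 to 4.18).

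**Figure D5:**
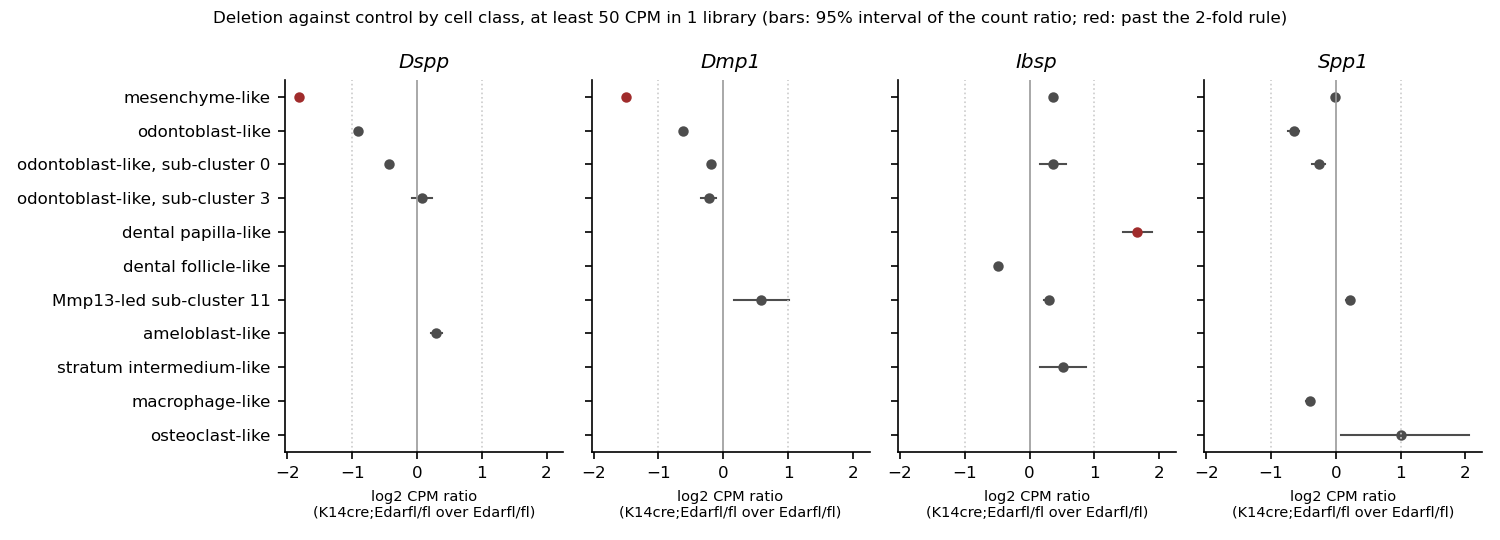
Log2 CPM ratio, deletion over control, of 4 members in those of 11 classes and sub-clusters where the gene had at least 50 CPM in 1 library, with bars for the 95% interval of the count ratio, dotted lines at 2-fold and red dots for values past the 2-fold rule. Among the dots drawn, those of Dspp and Dmp1 lie furthest left over all mesenchyme-like cells and move towards 0 from there to the odontoblast-like class and its sub-clusters, while Ibsp in dental papilla-like cells is the only dot drawn past the rule on the right.

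Genes that act on the members were read from 6 fixed lists, counted against the same background. Of the transcription factors of odontoblasts and osteoblasts, 18 of 18 reached the level in mesenchyme-like cells and none passed, with a median log2 ratio of 0.01 against 0.08 over all genes measured. In odontoblast-like cells Nfic, a factor needed for root odontoblasts, had 269 and 331 CPM and Msx1 135 and 155 CPM, and Sall1 had 114 and 102.3 CPM. Runx2 had 86.9 and 95.3 CPM and Sp7, the osteoblast factor osterix, 480 and 487 CPM in odontoblast-like cells.

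Of 12 kinase and glycosylation enzymes, 3 reached the level in odontoblast-like cells and none passed. Fam20c, the Golgi kinase that phosphorylates SIBLING proteins, had 80.2 and 61.9 CPM, its partner Fam20a 304 and 253 CPM, and the glycosyltransferase Galnt1 135 and 109 CPM. In sub-cluster 0 Fam20c had 114 and 102.1 CPM. Of 13 proteases 8 reached the level in mesenchyme-like cells and 1 passed, Phex, an endopeptidase for which SIBLING peptides are substrates, with 298 and 122 CPM (log2 ratio -1.25). Within sub-cluster 0 Phex had 987 and 933 CPM. Pcolce, an enhancer of the Bmp1 proteinase, had 1060 and 860 CPM in odontoblast-like cells, Ctsb 197 and 221 CPM and Furin 49.6 and 50.3 CPM. Of 10 integrins and other receptors, 5 reached the level in mesenchyme-like cells and none passed. Itga4 had 96.0 and 131 CPM in odontoblast-like cells (log2 ratio 0.43), Itgav 122 and 123 CPM and Itgb1 432 and 449 CPM.

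Of the other mineralised matrix genes, in mesenchyme-like cells 14 of 16 reached the level, all 14 had a log2 ratio below 0, and 3 passed: Bglap (243 and 88.6 CPM), its near-identical neighbour Bglap2 (153 and 67.0 CPM), whose reads may be split between copies, and Col11a2 (158 and 53.5 CPM). The list's median log2 ratio was -0.68 against 0.08 over all genes. Within odontoblast-like cells none of 14 passed, the median was -0.22 against 0.05, and Alpl (0.17) and Smpd3 (0.29) were above 0. Within sub-cluster 0 the median was -0.04 against 0.02. Col1a2 had 26390 and 14840 CPM in odontoblast-like cells, a log2 ratio of -0.83. Of 11 genes near the SIBLING cluster on chromosome 5, 3 reached the level in mesenchyme-like cells (Sparcl1, Hsd17b11 and Pkd2), none passed, and Hsd17b11 had 67.3 and 70.8 CPM in odontoblast-like cells.

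The genes whose level ran most like each member were taken over 55 profiles, a cluster or sub-cluster in 1 library with at least 50 cells, among 8516 genes. The profiles share libraries and depth, so Pearson's r of log2 (CPM + 5) is given as a description. For Dspp they were Mmp20 (0.86), an enamel and dentin protease, Pla2g5 (0.80), Slc17a9 (0.79), Gm40193 (0.78) and Fam20c (0.77). Mmp20, Slc17a9 and Gm40193 had their top profile in ameloblast-like cells, and Pla2g5 and Fam20c in sub-cluster 0. For Dmp1 they were Phex (0.89), Ccdc194 (0.87), Bcan (0.86), Chst13 (0.85) and Cpz (0.85), all with their top profile in sub-cluster 0.

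For Ibsp they were Mkx (0.80), a tendon and ligament factor, Runx2 (0.80), Dipk2a (0.79) and Tspan11 (0.78), with top profiles in sub-cluster 8 or 11. For Spp1 they were Mmp13 (0.72), Gpx3 (0.71), Lgmn (0.71), a lysosomal protease that peaked in macrophage-like cells, and Cd63 (0.67). Among the members themselves r was 0.59 for Dspp with Dmp1, 0.43 for Dmp1 with Spp1, 0.27 for Ibsp with Spp1, 0.24 for Dmp1 with Ibsp, 0.05 for Dspp with Spp1 and -0.08 for Dspp with Ibsp. For each of these 4 members, several of the listed genes had a higher r than any other member had. The listed genes were picked as the highest of all genes compared, and the other members are few. This order therefore cannot show whether members of the cluster on chromosome 5 run together more or less than other genes do.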

How the data were processed

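Single cells of 2 libraries, 1 per group, were analysed. The authors deposited whole-number UMI counts per gene and barcode; per the submitters' processing notes STARsolo and mm10 were used, while the sources used here name no version, annotation or barcode rule. Cells with at least 500 genes and at most 20% mitochondrial UMIs were kept. Scrublet calls (176, 1.31%, and 243, 1.57%) were removed. Clustering (scanpy 1.11.5) used counts scaled to 10000 per cell, 2000 variable genes without the members, 30 components, 15 neighbours and Leiden resolution 1.0, with 0.6 for sub-clusters. A name needed 3 markers detected in 25% of cells; this scoring rule was set after the data were seen. Members and lists were chosen with earlier results of these data known. Named genes were all members, list genes past the rule or at the extremes in odontoblast-like cells, and the 5 most like each member; a few others (Sp7, small counts) were named after their values were seen. Some genes that this rule selects are not reported here. UMIs were summed per class as CPM with exact 95% Poisson intervals, shares with Clopper-Pearson intervals, both covering counting error only. The 2-fold rule was checked on simulated data that held counting error only, without spread among cells or a change in cell mix. Sequences come from RefSeq (GRCm38.p6) and positions from GENCODE M21. Alternative settings are described in the closing section.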

Additional observations from a re-analysis of the deposited data

Results flagged for a closer look

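For each of 4 members the libraries differed in opposite directions in a pair of classes; none of these differences between classes was tested, as each rests on 1 library per group. Dspp had a log2 ratio of 0.30 in ameloblast-like and -0.91 in odontoblast-like cells, a gap of 1.21. Dmp1 had 0.55 in the Mmp13-led sub-cluster 11 and -0.62 in odontoblast-like cells, a gap of 1.17. The sub-cluster 11 value came from 20 control and 26 deletion cells with a Dmp1 UMI. Ibsp had 1.60 in dental papilla-like and -0.49 in dental follicle-like cells, a gap of 2.09. Spp1 had 0.21 in sub-cluster 11 and -0.63 in odontoblast-like cells, a gap of 0.844. The odontoblast-like values carry the difference in sub-cluster mix, and within sub-cluster 0 they were -0.44 for Dspp, -0.18 for Dmp1 and -0.26 for Spp1.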

How the results depend on the processing

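No paired analysis was possible because each group had 1 library. Values over osteoblast-like cells could not be given, as no cluster took that name. All values here are log2 ratios unless given as genes or shares. Over all alternatives, Dspp and Dmp1 stayed below 0 in mesenchyme-like and odontoblast-like cells, and Ibsp stayed above 0 in dental papilla-like cells (1.39 to 1.74) and past the 2-fold rule wherever it was applied. Settings for papilla-like, follicle-like and ameloblast-like cells and for single sub-clusters were chosen after seeing the data; in sub-cluster 0 they gave -0.75 to -0.25 for Dspp and -0.43 to -0.089 for Dmp1. With at least 1000 genes and at most 10% mitochondrial UMIs, Dspp had -1.78 in mesenchyme-like, -1.26 in odontoblast-like and 0.12 in ameloblast-like cells, Dmp1 -1.45 and -0.95, Spp1 -0.17 and -0.89 and Ibsp -0.25 in odontoblast-like cells. The odontoblast-like class then held 46.3% and 32.4% of mesenchyme, with 11 genes higher and 4 lower. With doublets kept, mesenchyme-like and odontoblast-like values were -1.85 and -1.25 for Dspp, -1.54 and -0.96 for Dmp1, 0.26 and -0.28 for Ibsp and -0.11 and -0.92 for Spp1, and Ibsp in dental papilla-like cells had 1.39. The shares were 41.0% and 27.8%, with 56 genes higher and 6 lower in odontoblast-like and 17 lower in mesenchyme-like cells. With cells thinned, Dspp had -1.85 and -0.96, Spp1 0.047 and -0.79, Dmp1 -0.66 in odontoblast-like, Ibsp 0.27 in mesenchyme-like and Spp1 -0.48 in macrophage-like cells, and 4 genes were lower in odontoblast-like cells. With median-of-ratios scaling, Dspp had -1.92 and -0.98, Dmp1 -1.60 and -0.69, and Ibsp 0.24 and Spp1 -0.13 in mesenchyme-like cells, with 19 genes lower. With each sub-cluster weighted equally, Dspp had -0.45, Dmp1 -0.18, Ibsp -0.14 and Spp1 0.13 in mesenchyme-like cells. With the members among the variable genes, odontoblast-like cells had -1.05 for Dspp and -0.76 for Dmp1, 5 genes higher and 2 lower, and a deletion share of 20.1%. Finer sub-clusters (resolution 1.2) gave -0.97 for Dspp and -0.68 for Dmp1 there, 0.10 for Dspp in ameloblast-like cells, and shares of 39.2% and 20.97%. Subtracting the endothelium-like level gave -1.79 for Dspp in mesenchyme-like and -0.25 for Ibsp in odontoblast-like cells. Without a minimum level 17 genes were higher and 16 lower in mesenchyme-like cells and 2 and 4 in odontoblast-like cells, since more genes were counted, and a pseudocount of 1 CPM gave 17 and 13 in mesenchyme-like cells. The cause of the other shifts was not tested. Depth limits Mepe, with 6 UMIs in all, and levels near those of endothelium-like cells.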
